A study of Bos taurus with 6 samples.

Results

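The erythroid miRNAs, a set of miRNAs that are abundant in red blood cells and their precursors, were followed in extracellular vesicles (EVs) of cow milk. The set had 6 members, bta-miR-451, bta-miR-144, bta-miR-486, bta-miR-16a, bta-miR-16b and bta-miR-185. They were chosen by name, and all 6 were found among the 276 known cow miRNAs of the count table, which listed 779 sequences with the 503 predicted ones. Milk came from 6 Holstein cows in mid lactation (101 ± 10 days in milk), kept in climate chambers. The control diet, a total mixed ration, was given to 3 cows. The other 3 cows ate a replacement diet, with some alfalfa hay exchanged for soybean hull and whole cotton seed. The known miRNAs received 70490, 161240 and 61156 counts in cows 1, 2 and 3 of the control diet, and 176919, 96254 and 69625 in those of the replacement diet, and values per cow are given in this order throughout. A level is the percentage that a miRNA took of a cow's known miRNA counts, called its share, unless another scale is named. Control cow 3 stood apart from the other cows in the shares of bta-miR-451 and bta-miR-185, so the results are given with and without it.

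MiRNAs are short RNAs that pair through their seed, bases 2 to 8, with messenger RNAs and lower the protein made from them. The precursors of miR-144 and miR-451 are cut from a single primary transcript that the factor GATA1 switches on in red cell precursors, and miR-451 is unusual in being matured by the slicer Ago2 without Dicer. Mature red cells have no nucleus and keep many of the miRNAs that were made before it was lost. Milk EVs come mainly from the mammary gland, and milk also takes up material from blood and from immune cells.

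The sequences of the 6 members are shown because they decide which counts can be told apart. They are written 5′ to 3′ as deposited, with the seed in capitals.

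bta-miR-451: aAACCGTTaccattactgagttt
bta-miR-144: tACAGTATagatgatgtactag
bta-miR-486: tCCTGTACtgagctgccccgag
bta-miR-185: tGGAGAGAaaggcagttcctga
bta-miR-16a: tAGCAGCAcgtaaatattggtg
bta-miR-16b: tAGCAGCAcgtaaatattggc

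The members held 5 different seeds. Only bta-miR-16a and bta-miR-16b shared one, and their first 20 bases were identical, so a read that ended early could not be given to either of them with certainty. Their seed was also that of bta-miR-15b and bta-miR-195. The seed of bta-miR-185 was shared by bta-miR-10175-5p, and those of bta-miR-451, bta-miR-144 and bta-miR-486 were held by no other listed sequence. In the RefSeq genes of assembly ARS-UCD2.0, 6 of 6 members had a precursor gene. MIR451 and MIR144 lay within 10 kb of each other. MIR486 lay in the span of ANK1, the gene of a membrane skeleton protein of red cells. MIR185 lay in TANGO2, MIR16B lay in SMC4 beside MIR15B, and MIR16A lay in a transcribed pseudogene beside MIR15A.

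The members differed widely in level. The most abundant was bta-miR-486, which is known from red cell precursors and from muscle. It held 7.70%, 3.72% and 11.3% of the known counts in cows 1 to 3 of the control diet and 4.10%, 6.77% and 7.39% in those of the replacement diet, a mean of 6.83% ± 2.77 (SD, n = 6). Control cow 3 was highest and control cow 2 lowest, so the range of the control cows enclosed that of the replacement cows. By its mean share bta-miR-486 was at rank 3 of 276.

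The next member was bta-miR-451, which is needed for normal red cell formation under stress. Its shares were 1.45%, 1.49% and 5.65% with the control diet and 0.709%, 1.08% and 1.64% with the replacement diet, a mean of 2.00% ± 1.82 (SD, n = 6) at rank 13. Control cow 3 was 3.44-fold above the next cow, and its 95% Wilson interval was 5.47% to 5.83%. The other 5 cows had a mean of 1.27% ± 0.378 (SD). In every cow bta-miR-486 was above bta-miR-451, by 2.00-fold in control cow 3 to 6.27-fold in replacement cow 2. Together these 2 members held 97.2% ± 1.13 (SD, n = 6) of the counts of the set.

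The cluster partner bta-miR-144, which acts on antioxidant control in red cells, was much lower. Its shares were 0.0752%, 0.0757% and 0.505% with the control diet and 0.0390%, 0.0374% and 0.228% with the replacement diet, a mean of 0.160% ± 0.183 (SD, n = 6), and 0.0911% ± 0.0789 (SD, n = 5) without control cow 3. Control cow 3 was highest here as well, and replacement cow 3 was the next. Their Wilson intervals, 0.452% to 0.565% and 0.196% to 0.267%, did not meet each other or those of the other 4 cows.

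The level of bta-miR-185 was 0.0610%, 0.0552% and 0.224% with the control diet and 0.0220%, 0.0291% and 0.0560% with the replacement diet, a mean of 0.0746% ± 0.0749 (SD, n = 6), and 0.0447% ± 0.0178 (SD, n = 5) without control cow 3. Control cow 3 was 3.67-fold above the next cow. In every cow bta-miR-185 was below bta-miR-144, at 0.245 to 0.811 of its counts.

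The miR-16 sequences, which slow the cell cycle and are made in most cell types, were the least abundant members by mean share, but not in every cow. The counts of bta-miR-16a were 9, 29 and 27 with the control diet and 60, 0 and 0 with the replacement diet, and those of bta-miR-16b were 12, 58 and 31 and then 47, 59 and 0. Control cow 3 had the highest share of bta-miR-16a, 0.0441% against 0.0339% in replacement cow 1, but for bta-miR-16b replacement cow 2 was higher, with 0.0613% against 0.0507%. The Wilson intervals overlapped in both cases, and by RPM replacement cow 1 was highest in bta-miR-16a, with 4.49 against 2.17 RPM in control cow 3. Because of their shared bases the counts were also added. The sum ran from 0.0298% to 0.0948% in 5 cows, while 0 of 69625 counts in replacement cow 3 allow a share of up to 0.00431%. That cow had 20 counts of bta-miR-15b, which has the same seed and whose gene lies beside MIR16B. By mean share bta-miR-185 was above bta-miR-16b, but this order was seen in 4 of 6 cows, so the 2 did not differ beyond their spread.

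**Figure D1:**
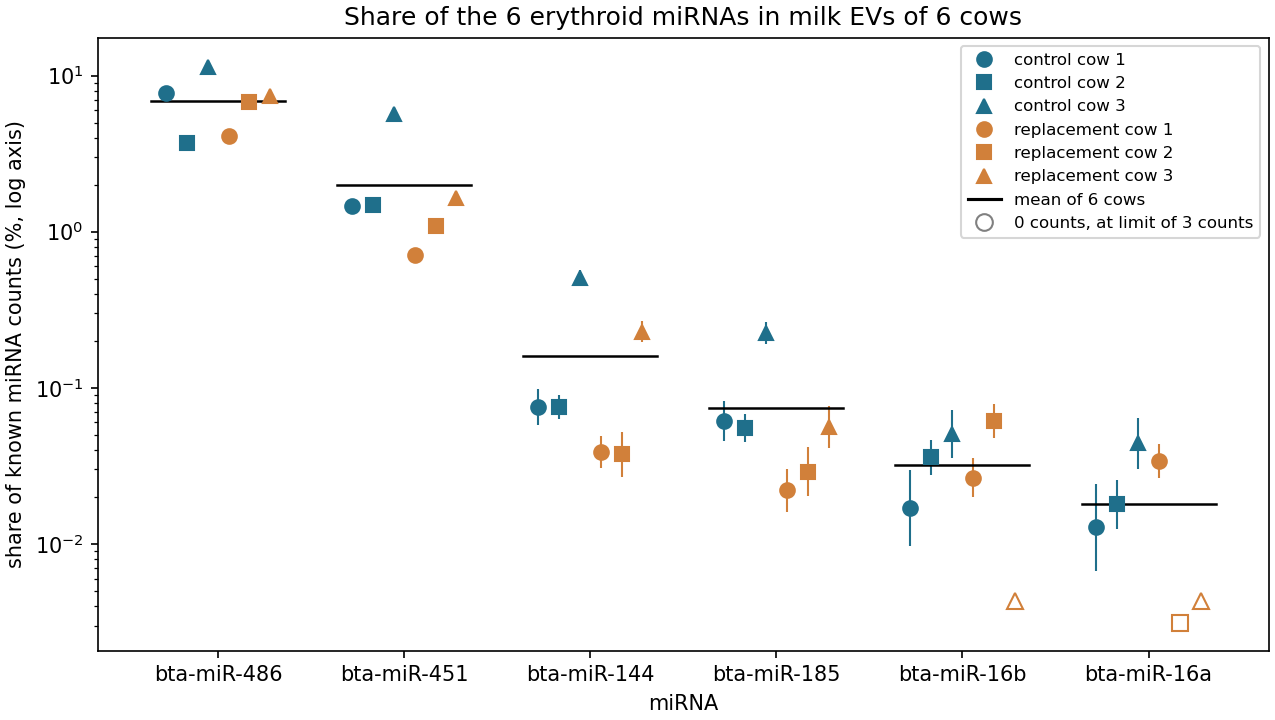
The share of each member in the known miRNA counts is plotted per cow on a log axis, with 95% Wilson intervals as vertical lines and the mean of 6 cows as a horizontal line. Control cow 3 (blue triangles) is the highest point in 5 of the 6 members, and open symbols mark 0 counts, drawn at the limit that 3 counts give.

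The 6 members together held 9.32%, 5.39% and 17.8% with the control diet and 4.93%, 7.98% and 9.31% with the replacement diet, a mean of 9.12% ± 4.65 (SD, n = 6). Without control cow 3 the mean was 7.39% ± 2.11 (SD, n = 5). The total of the known miRNAs itself differed by 2.89-fold between cows and was smallest in control cow 3, which gave 15.8% of its miRNA counts to known miRNAs against 21.5% to 42.0% in the other cows. A share depends on this total, so the deposited RPM values, which scale each count to a total of reads that differed by 1.10-fold between cows, were set beside it. Over 6 cows the r of log2 share with the log2 known total, by which the share is divided, was -0.955 for bta-miR-486, -0.681 for bta-miR-451, -0.693 for bta-miR-144 and -0.673 for bta-miR-185. For bta-miR-16a and bta-miR-16b it was 0.256 and 0.311. With log2 counts in place of shares, r was 0.419 for bta-miR-486, -0.034 for bta-miR-451, -0.326 for bta-miR-144 and -0.136 for bta-miR-185. It was then 0.451 for bta-miR-16a and 0.526 for bta-miR-16b.

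On the RPM scale the members behaved differently from each other. The level of bta-miR-486 was 415, 476 and 557 RPM with the control diet and 543, 537 and 408 RPM with the replacement diet. These values lay within 1.37-fold, whereas the shares of bta-miR-486 lay within 3.04-fold. Among the 84 known miRNAs with at least 10 counts in every cow, the SD of log2 RPM of bta-miR-486, 0.20, was at rank 2 from the smallest, and the median SD was 0.85. By log2 share its SD was 0.60, at rank 42 of 84, with a median of 0.61. Its spread between cows was thus among the smallest on one scale and near the median on the other.

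The level of bta-miR-451 was 78.3, 191 and 278 RPM with the control diet and 93.8, 85.7 and 90.7 RPM with the replacement diet. Control cow 3 was still highest, but only 1.46-fold above control cow 2, which by share was not apart from the others. Control cow 1 was the lowest of all 6 cows, below the 3 replacement cows. The excess of control cow 3 in bta-miR-144 was 1.97-fold over replacement cow 3 by RPM and 2.21-fold by share. For bta-miR-185 it was 1.56-fold over control cow 2 by RPM and 3.67-fold over the next cow by share.

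**Figure D2:**
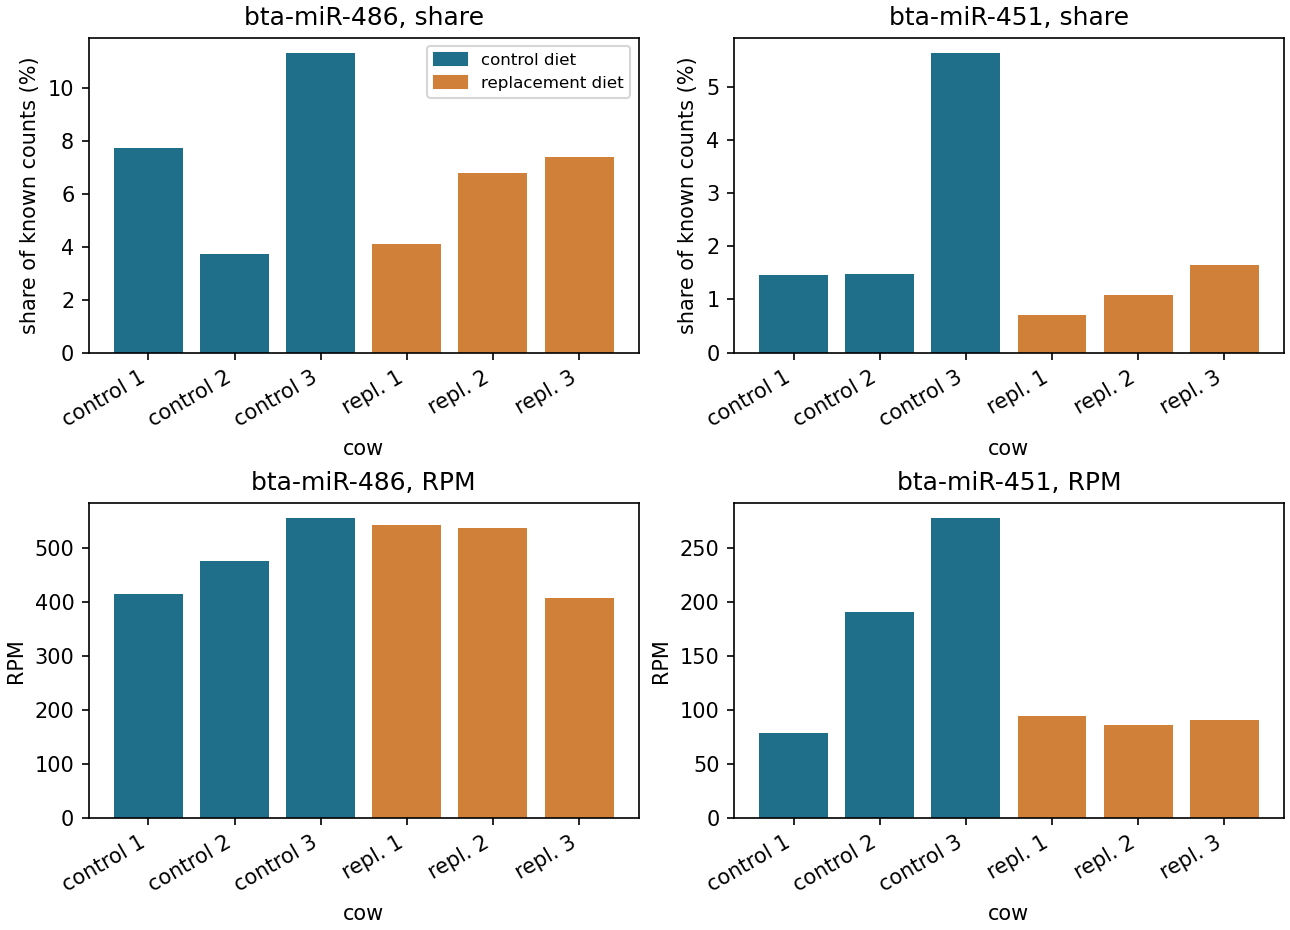
Bars give the share of known counts (upper row) and the RPM (lower row) of bta-miR-486 and bta-miR-451 in each cow, with control cows in blue and replacement cows in orange. The bars of bta-miR-486 run from 3.72% to 11.3% by share and only from 408 to 557 by RPM, and control cow 2 joins control cow 3 in bta-miR-451 by RPM.

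Ratios between members need no total and were computed from the counts of each cow. The ratio of bta-miR-451 to bta-miR-486 was 0.189, 0.400 and 0.499 with the control diet and 0.173, 0.159 and 0.222 with the replacement diet. It was high in 2 control cows, and control cow 1 lay among the replacement cows. Its range was 3.13-fold over 6 cows and 2.51-fold without control cow 3.

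The ratio of bta-miR-185 to bta-miR-451 varied least. It was 0.0420, 0.0371 and 0.0397 with the control diet and 0.0311, 0.0269 and 0.0341 with the replacement diet, a range of 1.56-fold. The shares, which also carry the known total, differed between cows by 10.2-fold for bta-miR-185 and 7.97-fold for bta-miR-451. The RPM values differed by 4.78-fold and 3.55-fold. The SD of the log2 ratio was 0.24, where counting error alone gives 0.21. Of the 3486 pairs among the 84 known miRNAs with at least 10 counts in every cow, 43 had a smaller SD, and the median of all pairs was 0.92. Every replacement cow was below every control cow in this ratio. Of the 83 miRNAs set against bta-miR-451, bta-miR-185 was the only 1 (1.2%) with this order, while 8 of 83 (9.64%) had every replacement cow above. The nearest cows, with 89 and 39 counts of bta-miR-185, lay within counting error.

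The cluster partners were less even. The ratio of bta-miR-144 to bta-miR-451 was 0.0517, 0.0509 and 0.0895 with the control diet and 0.0550, 0.0346 and 0.139 with the replacement diet. The highest was replacement cow 3, which had 159 counts of bta-miR-144 and 1144 of bta-miR-451, and control cow 3 was the next. The range was 4.01-fold, and the SD of the log2 ratio, 0.71, exceeded the 0.17 that counting error gives. So the members from a single primary transcript kept a less even ratio across cows than bta-miR-451 and bta-miR-185, whose genes lie on different chromosomes. The difference between these SDs was not tested.

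**Figure D3:**
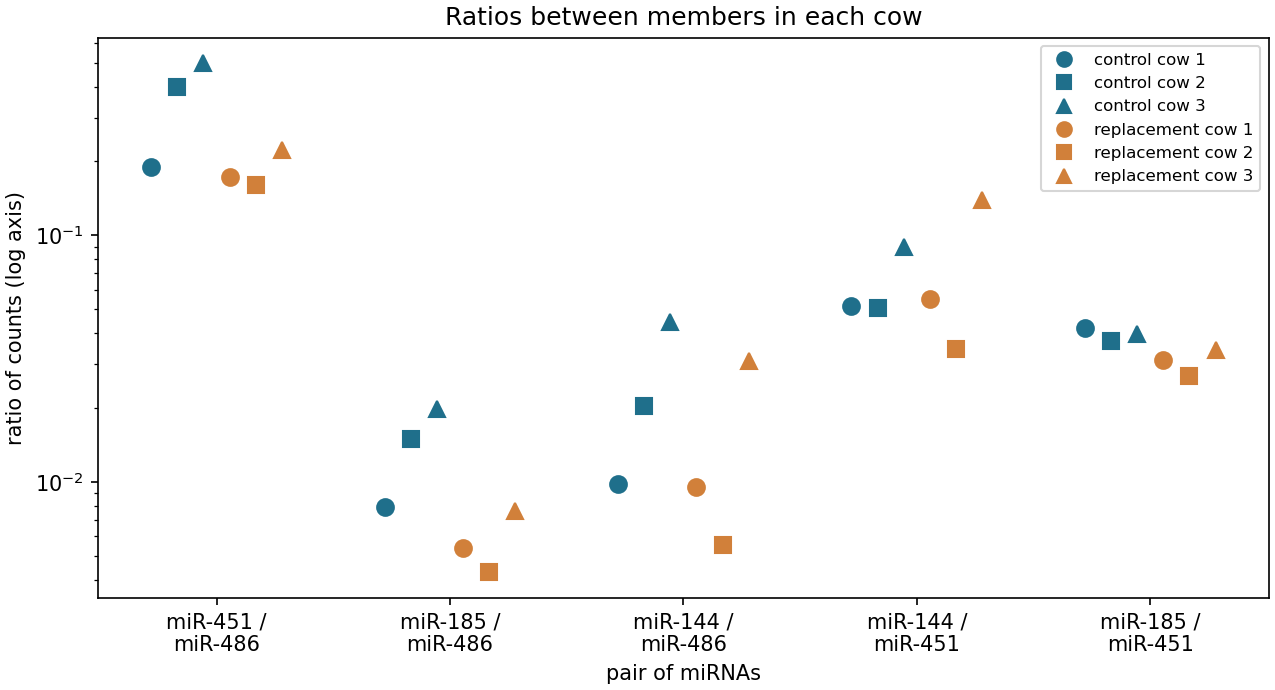
The ratio of counts of 5 pairs of members is plotted per cow on a log axis, with control cows in blue and replacement cows in orange. The points of bta-miR-185 to bta-miR-451 lie between 0.0269 and 0.0420, whereas those of bta-miR-144 to bta-miR-451 spread from 0.0346 to 0.139.

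Correlations across the 6 cows were computed from log2 shares with 0.5 count added. All points share the cow's library and total, and they are given as a description. The family was the 3655 pairs among 86 miRNAs, the 84 above with bta-miR-16a and bta-miR-16b, and the p-values are from two-sided exact permutation tests, which can give no p under 0.00278. Adjusted values are by Benjamini-Hochberg over this family, in which no pair was under 0.556. Of these pairs 302 (8.26%) had an unadjusted p under 0.05, as did 3 of the 15 pairs of members.

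The closest pair was bta-miR-451 and bta-miR-185, with r = 0.986 (exact p = 0.0111, adjusted p = 0.556) and rho = 0.829 (exact p = 0.0583, adjusted p = 0.646). Without control cow 3 r was 0.955 (exact p = 0.0667, n = 5). Without the 2 cows farthest from the median of bta-miR-451, control cow 3 and replacement cow 1, it was 0.928 (n = 4). On the RPM scale r was 0.970 (exact p = 0.0361), and 0.922 without control cow 3 (exact p = 0.217, n = 5). Of the 3655 pairs, 3 had a higher r. The relation was thus also seen without the cow that stood apart, on fewer cows.

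For bta-miR-451 and bta-miR-144, r was 0.910 (exact p = 0.00833, adjusted p = 0.556) and rho was 0.943 (exact p = 0.0167, adjusted p = 0.635). It was 0.774 without control cow 3 (exact p = 0.050, n = 5) and 0.885 without the same 2 cows (n = 4). On the RPM scale r was 0.798 (exact p = 0.0833), and 0.524 without control cow 3 (exact p = 0.5, n = 5). The third of these pairs, bta-miR-185 and bta-miR-144, had r = 0.905 (exact p = 0.0222, adjusted p = 0.556) and rho = 0.771 (exact p = 0.103, adjusted p = 0.683), and r was 0.743 without control cow 3 and 0.677 without the 2 cows.

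The most abundant member followed the others less closely without control cow 3. For bta-miR-451 and bta-miR-486, r was 0.744 (exact p = 0.0833, adjusted p = 0.581) and rho was 0.543 (exact p = 0.297, adjusted p = 0.787). It was 0.429 without control cow 3 (exact p = 0.5, n = 5) and -0.096 without the 2 cows farthest from the median (n = 4), so the relation rests on those cows. The r of bta-miR-486 without control cow 3 was 0.379 with bta-miR-144 and 0.351 with bta-miR-185. By RPM the r of bta-miR-486 with bta-miR-451 was 0.444, and 0.117 without control cow 3. Without that cow it was -0.50 with bta-miR-144 and -0.20 with bta-miR-185 by RPM. Pairs with bta-miR-16a or bta-miR-16b had r between -0.32 and 0.45 over 6 cows, where bta-miR-16a was at 0 counts in 2 cows and bta-miR-16b in 1. For bta-miR-144 and bta-miR-16b, r without control cow 3 was -0.921 (exact p = 0.1, n = 5), and it was -0.659 for bta-miR-486 and bta-miR-16a (exact p = 0.3, n = 5). By RPM the latter was 0.265 (exact p = 0.5, n = 5), and r of bta-miR-486 and bta-miR-16b was 0.754 over 6 cows (exact p = 0.0833) against -0.102 by share.

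**Figure D4:**
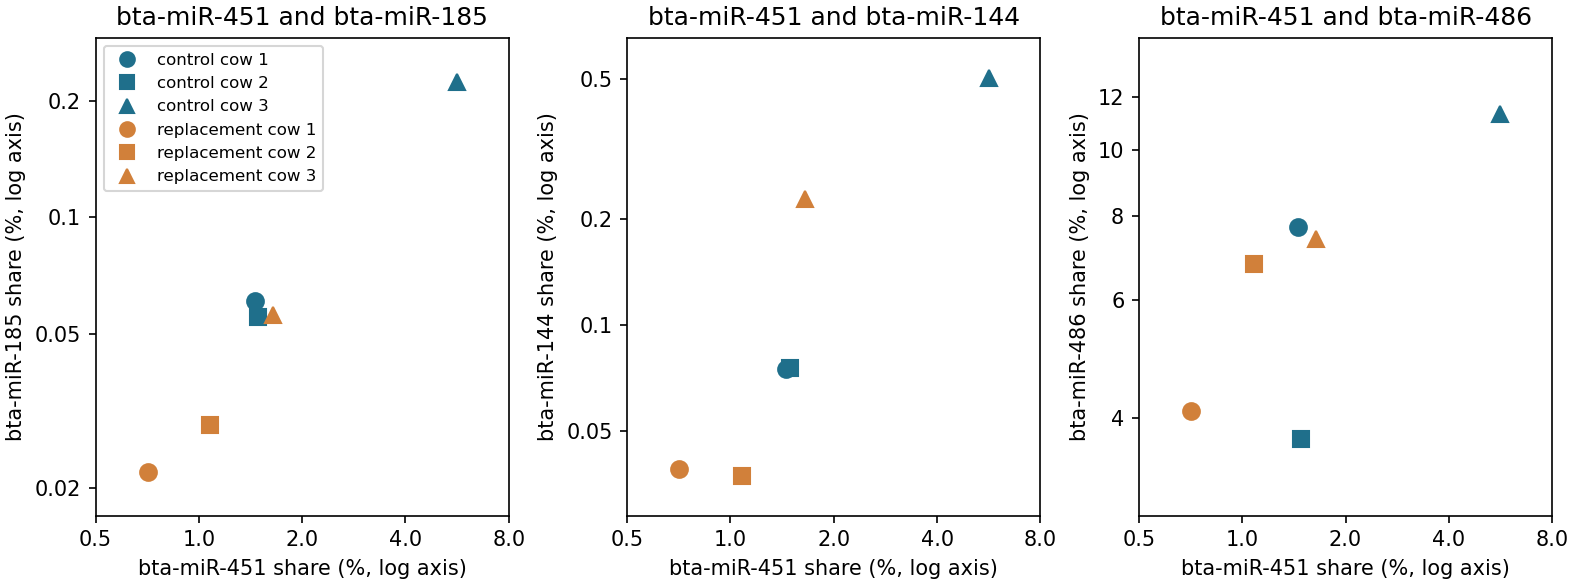
The share of bta-miR-185, bta-miR-144 and bta-miR-486 is plotted against that of bta-miR-451 in each cow, with log axes in percent of known counts. Control cow 3 is at the upper right of each panel, and the other 5 cows still order along bta-miR-185 (r = 0.955) but less so along bta-miR-486 (r = 0.429).

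The known miRNAs whose share was most like that of bta-miR-451 were sought among the other 83 with at least 10 counts in every cow, where the median r was 0.23. The highest r was that of bta-miR-185, 0.986, followed by bta-let-7g (0.919), bta-miR-320a (0.914), bta-miR-144 (0.910) and bta-miR-92a (0.906). Without control cow 3, bta-miR-185 was still first and bta-miR-144 was at place 11, whereas bta-miR-92a was at place 28 with r = 0.433. On the RPM scale bta-miR-185 was first (0.970) and bta-miR-144 second (0.798). Those most like bta-miR-486 were bta-let-7b (0.923), bta-miR-125a (0.891), bta-miR-30a-5p (0.879), bta-miR-320a (0.876) and bta-let-7a-5p (0.861), and none was a member. There, bta-miR-451, bta-miR-185 and bta-miR-144 were at places 17, 20 and 22 of 83. This list depended on the scale, since by RPM r was -0.10 for bta-miR-30a-5p, 0.191 for bta-miR-125a and 0.369 for bta-let-7a-5p, and 1 of the 5 was among the 5 most like bta-miR-486.

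**Figure D5:**
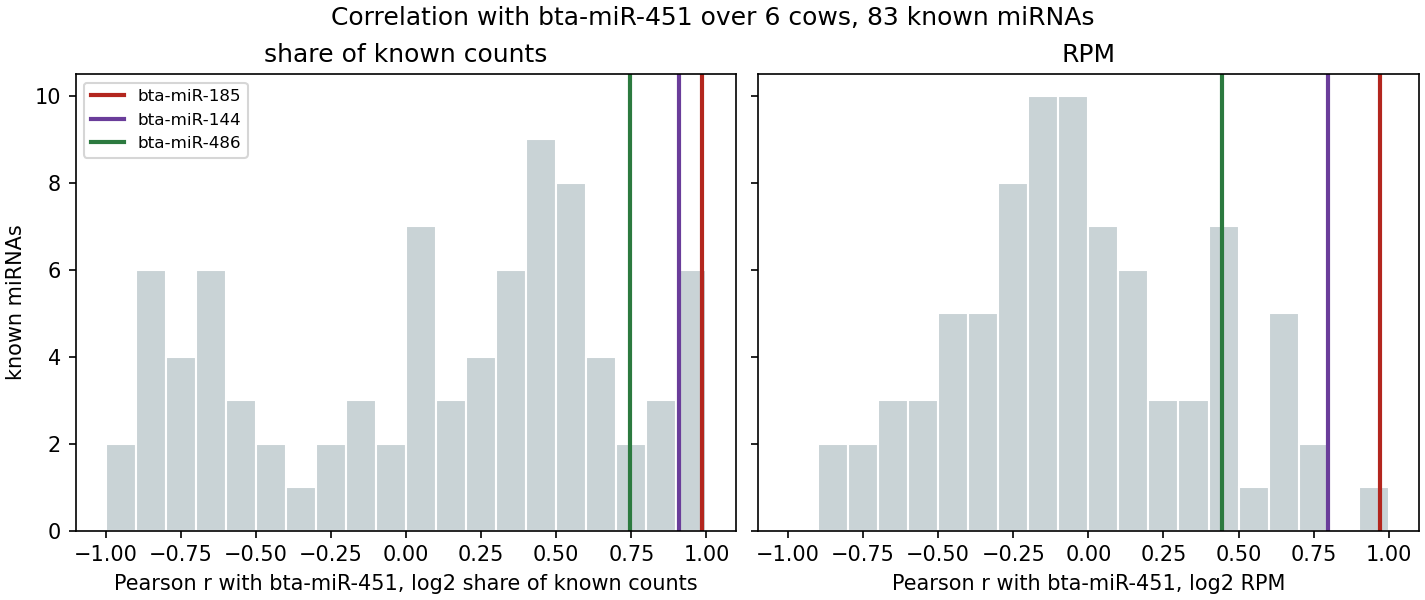
Histograms give the Pearson r with bta-miR-451 over 6 cows for the other 83 known miRNAs with at least 10 counts in every cow, by log2 share (left) and log2 RPM (right). Vertical lines mark 3 members, of which bta-miR-185 has the highest r on both scales, 0.986 and 0.970.

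The comparison of diets asked whether replacing part of the hay changed the members. All 6 members passed the filter on low counts, and edgeR called 0 of 6 members and 0 of the 227 miRNAs tested (0%) at an adjusted p under 0.05. At an unadjusted p under 0.05 there were 8 miRNAs (3.52%), among them 1 member. DESeq2 called 7 of the 390 miRNAs it tested, of which 0 were members. In the edgeR fit bta-miR-451 had a log2 fold change, replacement against control, of -1.30 ± 0.53 (SE, adjusted p = 0.986), and bta-miR-185 had -1.64 ± 0.80 (SE, adjusted p = 0.986). All 6 fitted values were below 0, with a median of -0.90, as were 110 of 227 over all miRNAs tested, with a median of 0.03. However, bta-miR-486, bta-miR-16b and bta-miR-144 were above 0 without control cow 3. When the fit was scaled by library size only, bta-miR-486 and bta-miR-16b were above 0, but the median of the 227 miRNAs was then 0.63. Relative to that median they were at -0.21 and -0.060, a step that takes the typical miRNA as unchanged. By RPM the log2 ratio of their mean levels, replacement over control, was 0.039 and 0.063. Whether the members themselves turned was not tested.

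These values were nearer 0 without control cow 3. In the fit without it, the log2 fold change was -0.60 ± 0.36 (SE, adjusted p = 0.862) for bta-miR-451 and -0.94 ± 0.86 (SE, adjusted p = 0.997) for bta-miR-185. It was 0.034 ± 0.93 (SE, adjusted p = 0.997) for bta-miR-144 and 0.0045 ± 0.28 (SE, adjusted p = 0.997) for bta-miR-486. By share, the set held 10.8% ± 6.34 (SD, n = 3) with the control diet and 7.41% ± 2.25 (SD, n = 3) with the replacement diet, a difference smaller than the spread between cows. The direction depended on the denominator, with a log2 ratio of -0.55 by share of known counts and 0.19 against known and predicted counts together. Without control cow 3 the control mean was 7.36%, which left a difference of 0.050 percentage points.

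The scaling of the fit also bears on direction. The median log2 fold change of the 227 miRNAs was 0.03 with TMM, 0.17 with RLE size factors and 0.63 with library size only. The log2 fold change of bta-miR-486 was -0.26, -0.14 and 0.42 in these fits, which is -0.29, -0.31 and -0.21 relative to that median. DESeq2 tested 390 miRNAs, and its median is over all miRNAs with a fitted value, tested or not, so it is not over the same 227. There bta-miR-486 was at -0.16, or 0.058 relative to the median of all its fitted values, which was -0.22. In the same fit bta-miR-16b was 0.19 above that median. For bta-miR-451 the log2 fold change was -1.30, -1.18 and -0.56 with TMM, RLE and library size only, or -1.33, -1.35 and -1.19 relative to the median.

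By RPM the diets did not overlap in bta-miR-185, with 3.28, 7.07 and 11.0 RPM with the control diet and 2.92, 2.31 and 3.09 RPM with the replacement diet. Of the 84 known miRNAs with at least 10 counts in every cow, 4 (4.76%) had every replacement cow below every control cow by RPM. The nearest cows had 43 and 39 counts, which is within counting error, and by share the diets overlapped, with 0.0552% in control cow 2 and 0.0560% in replacement cow 3. Relative to bta-miR-486, every replacement cow was below every control cow in bta-miR-185. It was among the 4 of 83 miRNAs (4.82%) with this order, while 1 of 83 (1.2%) had every replacement cow above. The nearest cows were the same and again within counting error. With 3 cows against 3 an exact permutation test cannot give a p under 0.1.

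Other miRNAs of red cells were looked at by a list of 14 names, of which 11 were in the table and bta-miR-15a, bta-miR-20b and bta-miR-363 were not. Of these 11, 8 were highest in control cow 3 (72.7%), as were 5 of the 6 members and 66 of all 276 known miRNAs (23.9%). By RPM 3 of the 11 were highest there (27.3%), bta-miR-106b, bta-miR-96 and bta-miR-182, with 4 of the 6 members and 38 of the 276 (13.8%). Those highest by share were bta-miR-92a, bta-miR-25, bta-miR-93, bta-miR-106b, bta-miR-15b, bta-miR-96, bta-miR-182 and bta-miR-183. The last of these is in the mammary list as well, and held 0.0409% in control cow 3 and 0.0405% in replacement cow 2. The size differed: bta-miR-92a held 2.34% in control cow 3 against 1.54% to 1.81% in the other cows, and bta-miR-182 held 0.129% against at most 0.0603%. The summed share of the list was 6.03%, 4.07% and 6.64% with the control diet and 3.10%, 5.01% and 4.58% with the replacement diet, so control cow 3 exceeded control cow 1 only slightly. Its most abundant miRNA, bta-miR-22-3p, was highest in control cow 1, with 3.82% against 3.04% in control cow 3, and bta-miR-210 was at 0 counts in all cows but replacement cow 1. The last, bta-miR-107, held 0.0589% in control cow 3 against 0.115% and 0.149% in replacement cows 2 and 3.

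The miRNAs known to fall while red cells mature were looked at as well. Of the 5, bta-miR-221, bta-miR-222, bta-miR-223, bta-miR-155 and bta-miR-24-3p, 0 were highest in control cow 3, against 66 of all 276 known miRNAs (23.9%). There bta-miR-223 was lowest with 0.0114% (7 counts) against 0.0255% to 0.0938%. By RPM 0 of the 5 were highest there and 2 (40%) lowest. Of the 84 known miRNAs with at least 10 counts in every cow, 5 (5.95%) were highest there by RPM and 35 (41.7%) lowest. In the lists of other cells, bta-miR-223 is also among the leukocyte and platelet miRNAs, bta-miR-155 among the leukocyte and bta-miR-221 among the platelet ones. The summed share of the 5 was 0.504%, 0.682% and 0.450% with the control diet and 0.562%, 0.589% and 0.247% with the replacement diet, and the most abundant was bta-miR-24-3p.

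Markers of other cells were examined in the same way, first by share. Over all 276 known miRNAs, 66 (23.9%) were highest in control cow 3 and 27 (9.78%) were lowest there. Of the 84 with at least 10 counts in every cow, 19 (22.6%) were highest there and 20 (23.8%) lowest. Of 9 leukocyte miRNAs, 2 were highest in control cow 3, bta-miR-146b and bta-miR-142-3p (with 1 count), and 3 were lowest there. Their sum was 2.85%, 3.68% and 3.56% with the control diet and 2.49%, 2.76% and 3.73% with the replacement diet, led by bta-miR-150. Of 5 platelet and endothelial miRNAs, 1 was highest in control cow 3, bta-miR-199a-3p, and their sum was 1.51%, 1.09% and 1.40%, then 0.915%, 1.32% and 1.12%, led by bta-miR-126-3p. Of 10 miRNAs of mammary epithelium, 3 were highest there, bta-miR-183, bta-miR-200c (17 counts) and bta-miR-141 (11 counts), and their sum was 1.63%, 1.05% and 1.26%, then 1.10%, 0.790% and 1.27%, led by bta-miR-148a. The lowest there was bta-miR-375, with 0.0164% against 0.0187% to 0.144%, and bta-miR-200a held 0.00818% against 0% to 0.131%. The epithelial bta-miR-200b and bta-miR-429 were at 0 counts in control cow 3, as in 3 and 2 of the other cows. Of 3 liver miRNAs, 0 were highest in control cow 3, and their sum was 1.37%, 0.610% and 1.90%, then 0.717%, 1.81% and 2.28%, led by bta-miR-192. By RPM, 2 of the 9 leukocyte and 1 of the 10 mammary miRNAs (bta-miR-141) were highest in control cow 3. It was 0 of the 5 platelet and endothelial and 0 of the 3 liver miRNAs. The lowest there by RPM were 4 leukocyte, 2 platelet and endothelial, 2 mammary and 0 liver miRNAs, with 43 of the 276 known miRNAs (15.6%). Of the 84 with at least 10 counts in every cow, 5 (5.95%) were highest there by RPM and 35 (41.7%) lowest. The leukocyte (44.4%) and platelet and endothelial (40%) parts that were lowest are near the latter. In EVs, more vesicles from a cell type and more of a miRNA per vesicle cannot be told apart, and the part of any cell type in the levels of the members was not tested.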

How the data were processed

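Small RNA libraries of milk EVs from 6 cows were analysed. According to the labels and methods, the authors trimmed reads with cutadapt 1.14, aligned them to the cow genome (ARS-UCD1.2), named known miRNAs with miRBase, and found predicted ones through miRDeep2. The files deposited by the authors hold whole-number counts per mature miRNA and those counts as RPM, in columns named TPM. How reads matching several miRNAs were counted is not given in the sources used here. A deposited table of the authors' comparison, with log2 fold changes and p-values and 6 further columns of per-sample values, was not used.

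Shares, Wilson 95% intervals, a limit of 3 counts for 0 counts, ratios and correlations were computed in Python 3.11.15 with scipy 1.17.1. Intervals and limits cover counting error only. Known miRNAs had 61156 to 176919 counts per cow. Diets were compared with edgeR 4.0.16 (TMM, filterByExpr, the quasi-likelihood F test, p adjusted by Benjamini-Hochberg over all miRNAs tested) in R 4.3.3, and SE is the log2 fold change divided by the root of F. DESeq2 1.42.0, other scalings, filters, totals and leaving out each cow were alternatives. The scripts were tested on simulated data.

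The members and the lists were chosen with earlier results of these data known. Named miRNAs are the members, the marker lists, known miRNAs that share a seed with a member, and the 5 most like bta-miR-451 and bta-miR-486. Gene names come from RefSeq (ARS-UCD2.0), which is not the authors' build, so no positions are given.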

Additional observations from a re-analysis of the deposited data

Results flagged for a closer look

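A check for a cow far from the other 5 was made on 20 sets of values, shares, RPM and ratios of the members over the 6 cows. It compares the gap to the nearest cow with the whole range. In 3 of them control cow 3 was past the limit. They were the share of bta-miR-451 (5.65%), the share of bta-miR-185 (0.224%) and the share of the 6 members together (17.8%). Chance passes the limit in about 1 of 20 separate sets. That rate does not apply here, since the sets share the counts of the same cows and the members were chosen with earlier results known. No set of RPM values and no set of ratios was past the limit. The known miRNAs of control cow 3 had the smallest total, 61156 counts. Over 6 cows the r of log2 share with the log2 of the known total was -0.681 for bta-miR-451 and -0.673 for bta-miR-185. A share is divided by that total, and with log2 counts in place of shares r was -0.034 and -0.136. By RPM the cow was highest in bta-miR-451 and bta-miR-185 but closer to the next cow.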

How the results depend on the processing

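The count of calls between diets was 0 of 227 in the edgeR fit and 7 of 390 with DESeq2 (6 higher and 1 lower). It was 15 of 779 without a filter on low counts (10 higher and 5 lower), and 0 with RLE factors, library size only or known miRNAs only. Leaving out each cow gave 0 to 1 calls, 1 each without control cow 2 and without control cow 3. No member was called in any of these fits. With cow number as a replicate block there were 0 calls. The same number names a different cow in each diet. Deviations from the diet mean correlated at -0.110, -0.158 and 0.177 between cows with the same number. Over all pairs of a control and a replacement cow they ran from -0.26 to 0.32. With 3 cows per diet these values cannot show whether a block was present.

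The mean share of the set, 9.12%, was 2.27% of known and predicted counts together, 7.71% with pooled counts and 8.65% as a median. The log2 ratio of its mean shares between diets, -0.55, was 0.19 against known and predicted counts and -0.20 by RPM, and ran from -0.87 to 0.0097 with each cow left out. The cause was not tested.

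Scaling by library size only moved the median of the 227 miRNAs to 0.63, and bta-miR-486 and bta-miR-16b lay below that median. In that fit the fitted log2 fold change of bta-miR-486 was 0.42 and that of bta-miR-16b 0.57. With each cow left out it ran from -2.20 to 0.034 for bta-miR-144, from -0.43 to 0.0045 for bta-miR-486, from -0.96 to 0.43 for bta-miR-16b and from -7.52 to -0.080 for bta-miR-16a. The lowest bta-miR-16a value, without replacement cow 1, sets the control cows against cows at 0 counts and is no bound, and with the replicate block it was -4.36. None had passed the test.

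The r of bta-miR-451 with bta-miR-185 was 0.955 without control cow 3 and 0.928 without the 2 farthest cows, and that with bta-miR-144 was 0.774 and 0.885, and 0.798 by RPM, added after the shares were seen. Fewer cows raise the smallest possible p. That with bta-miR-486 was -0.096 without the 2 cows, as was bta-miR-185 with bta-miR-486 (-0.094). Correlations of the sparse miR-16 members with the other members changed sign in some alternatives. That of bta-miR-16b with bta-miR-16a did not, and ran from 0.264 to 0.729. Without control cow 3, bta-miR-16b had -0.494 with bta-miR-451 and -0.455 with bta-miR-185, and bta-miR-16a had -0.342, -0.074 and -0.323 with bta-miR-451, bta-miR-185 and bta-miR-144. Without control cow 3 and replacement cow 1, bta-miR-16b had -0.733 and -0.498 with bta-miR-451 and bta-miR-185. For bta-miR-486 the farthest cows were replacement cow 1 and control cow 2, and without these it had 0.307 with bta-miR-16b and 0.851 with bta-miR-16a. By linear share, bta-miR-16b had 0.111 with bta-miR-144 and 0.174 with bta-miR-486, and bta-miR-16a had 0.243 with bta-miR-486. By RPM bta-miR-486 had 0.754 with bta-miR-16b and 0.376 with bta-miR-16a, and bta-miR-185 with bta-miR-144 had 0.818 (exact p = 0.0639). The miR-16 members had at most 60 counts in a cow, and whether depth bears on these changes was not tested.

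Of the 5 miRNAs most like bta-miR-451, 1 was shared without control cow 3 and 3 with at least 50 counts in every cow, where bta-miR-185 and bta-miR-144 could not enter. For bta-miR-486 the numbers were 3 and 5. By RPM, 3 were shared for bta-miR-451 and 1 for bta-miR-486. Of 11 other red cell miRNAs, 8 were highest in control cow 3 by share and 3 by RPM, counted after the shares were seen.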

Other observations

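A predicted sequence of 21 bases was the reverse complement of bta-miR-486 over 20 bases. It was chosen after its values were seen, and its seed is in capitals.

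predicted sequence: cGGGGCAGctcagtacaggac

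It had 3, 14 and 27 counts with the control diet and 7, 5 and 2 counts with the replacement diet, against 5142 to 7256 counts of bta-miR-486. Control cow 3 was highest, as for bta-miR-486 by share and by RPM, although replacement cow 1 had more counts of bta-miR-486.

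Close relatives by seed gave few counts. The share of bta-miR-15b was 0.0227%, 0.0397% and 0.0507% with the control diet and 0.0243%, 0.0114% and 0.0287% with the replacement diet. By contrast bta-miR-195 was seen only in control cow 3, with 7 counts. The relative of bta-miR-185, bta-miR-10175-5p, had 75 counts in control cow 2, 1 count in replacement cow 2 and 0 counts in the other 4 cows, so it did not follow bta-miR-185.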
